A study of Mus musculus with 16 samples.

Results

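The genes described here are 10 that remodel the matrix around cells: the metalloproteinases Mmp2, Mmp9 and Mmp14, the secreted protease Adamts1, the tissue inhibitors of metalloproteinases Timp1, Timp2 and Timp3, the procollagen C-endopeptidase enhancers Pcolce and Pcolce2, and Plat, which encodes tissue plasminogen activator. They were chosen by name with their signals on these arrays already known, so their values are given as a description with standard errors. Their calls in the fit across all probe sets are counted in the same way, as a description and not as a test of these genes. All 10 of the 18193 genes with a probe set of 1 symbol were found, with 24 such probe sets, out of 45037 probe sets tested in all. Expression was measured with 16 arrays, 2 for each of 8 populations sorted from differentiating CCE mouse embryonic stem cells, and the duplicates came from separate experiments. The cells were grown as embryoid bodies without LIF after they had been parted from a feeder layer of irradiated embryonic fibroblasts, and were fixed in ethanol and acetic acid before antibody staining and sorting. Cells at day 2.5 were sorted for VEGF-R2, the receptor carried by the common precursor of blood and endothelium, into VEGF-R2+ and VEGF-R2- cells. Cells at day 3.5 were sorted for CD41, an early marker of blood progenitors, into CD41+ and CD41- cells. Other cells at day 3.5 and cells at day 6.5 were sorted for CD144, the endothelial VE-cadherin, into CD144+ and CD144- cells, so that every positive population has a negative one of its own day. The negative cells serve as the controls. For the CD41 sort the study also writes the positive cells as VEGF-R2+/CD41+ and the controls as VEGF-R2-/CD41-. The 2 populations of that sort may thus differ in VEGF-R2 as well as in CD41. The study also writes the CD144+ cells as VEGF-R2+/CD144+, so the populations of the CD144 sorts may differ in VEGF-R2 too. A single stem cell line was used, and in sorted bulk samples fewer cells of a type and less RNA per cell cannot be told apart.

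The extracellular matrix is turned over by secreted and membrane-bound proteases. The matrix metalloproteinases digest collagens and other matrix proteins, are made as inactive precursors and are held in check by the Timp proteins, which bind their active sites. New fibrillar collagen is laid down once its C-terminal propeptide has been cut off, a step carried out by Bmp1 and its relatives and speeded by the Pcolce proteins. Sprouting vessels depend on this turnover, and blood progenitors that leave the vessel wall lose contact with the matrix.

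The signals are MAS5 values, which summarise the probes of a probe set on a linear scale, and the median over all probe sets and arrays was 85.8. Differences were taken on log2(signal + 6), with the standard error from a limma fit in which all 8 populations share 1 estimate of the spread. They are given as the first population named minus the second, and this scale understates differences of dim genes. Each gene is led by its probe set of the highest mean signal. Duplicates of the positive populations correlated less (Spearman 0.872 to 0.895) than those of the negative populations (0.945 to 0.955). The added hybridization controls were brighter on every positive array (geometric mean 6481 to 11175) than on every negative array (2134 to 3022), so that in comparisons of positive with negative cells the sort and this difference between array sets cannot be told apart. Transcripts of the sorting markers differed within each sort, with Kdr at 5475 and 6297 against 2088 and 2077 at day 2.5, Itga2b at 7523 and 5299 against 227 and 195 in the CD41 sort, and Cdh5 at 2085 and 1863 against 38.3 and 20.5 in the day 3.5 CD144 sort. All 12 endothelial markers were higher in CD41+ than in CD41- cells too. Kdr is 1 of them, with 1675 and 3335 in CD41+ against 53.5 and 95.1 in CD41- cells. In the CD144 sort of day 3.5 it read 4066 and 3691 in CD144+ against 1001 and 740 in CD144- cells. At day 6.5 it read 4803 and 5115 in CD144+ against 352 and 427 in CD144- cells. The CD41+ arrays differed from each other in the summed signal of marker lists, with 11164 and 19728 for endothelial, 11607 and 25641 for extraembryonic endoderm, 3987 and 10361 for pluripotent cell markers and 80169 and 61289 for early blood markers on the first and the second array. Values without 1 of them are given where that array moved a result.

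**Figure D1:**
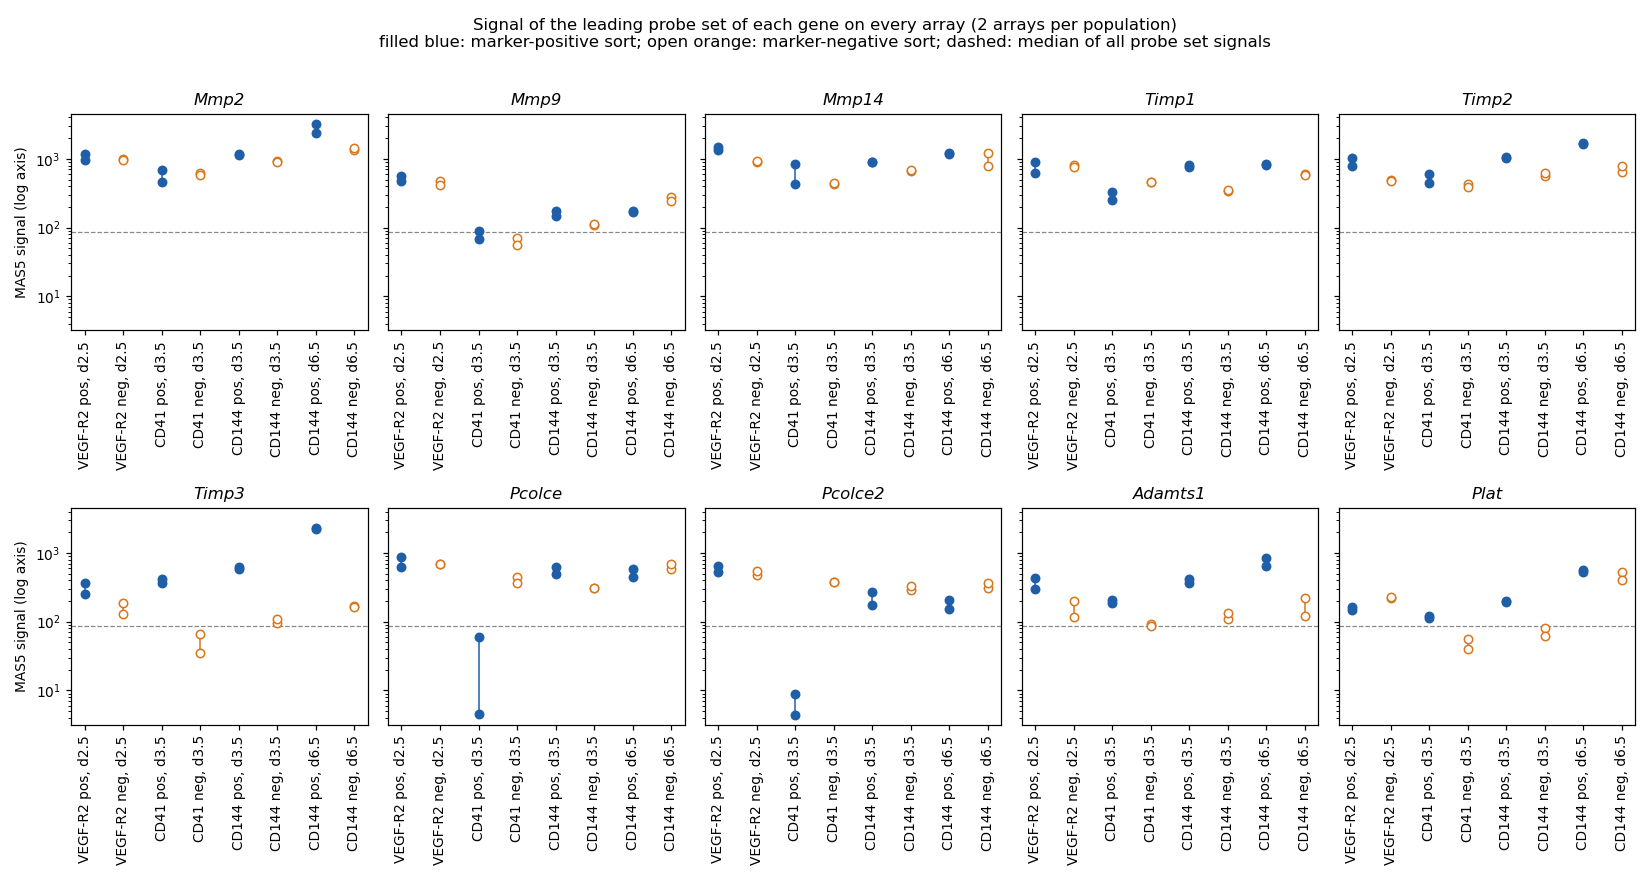
MAS5 signal of the leading probe set of each of the 10 genes (vertical, log axis) in the 8 populations (horizontal), with a point for each array, filled for marker-positive and open for marker-negative cells, and a dashed line at the median of all signals, 85.8. In each sort the points of Timp3 and Adamts1 are higher for positive cells, Pcolce and Pcolce2 are lowest in CD41+ cells, and Plat is highest in both populations of day 6.5.

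The genes fell into a few patterns across the 8 populations, as the plot of signals on every array shows. The distance between the highest and the lowest population mean was 5.57 on the log2 scale for Pcolce2, 5.39 for Timp3 and 4.82 for Pcolce. The order of these turns with the constant added before the log2, since with 32 added in place of 6 it was 4.0 for Pcolce2, 4.83 for Timp3 and 3.74 for Pcolce. It was 3.38 for Plat, 2.99 for Adamts1, 2.93 for Mmp9 and 2.29 for Mmp2. The smallest distances belonged to Timp2 (2.03), Mmp14 (1.68) and Timp1 (1.51). The median over all tested probe sets was 1.69, and over those with a mean signal above the median 1.35. Mmp2, Timp1, Timp2, Timp3, Adamts1 and Plat were highest in CD144+ cells at day 6.5, and Mmp9, Mmp14, Pcolce and Pcolce2 in VEGF-R2+ cells at day 2.5. The lowest mean was in CD41+ cells for Mmp2, Timp1, Pcolce and Pcolce2 and in CD41- cells for the other six.

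Mmp2 encodes gelatinase A, which digests collagen IV of basement membranes and denatured collagens. Its signals were 969 and 1177 in VEGF-R2+ and 1007 and 960 in VEGF-R2- cells, and the arrays of both populations overlapped. At day 3.5 they were 454 and 685 in CD41+ and 631 and 586 in CD41- cells, again overlapping. CD144+ cells at day 3.5 had 1175 and 1132 and CD144- cells 918 and 887, without overlap. At day 6.5 both CD144+ arrays, 3223 and 2341, lay above all other arrays, with 1338 and 1423 in CD144- cells. The log2 difference was 0.99 ± 0.19 (SE, 2 arrays per population) between CD144+ and CD144- cells at day 6.5 and 0.35 ± 0.19 at day 3.5. Between day 6.5 and day 3.5 it was 1.25 ± 0.19 in CD144+ cells and 0.61 ± 0.19 in CD144- cells. CD41+ cells were below VEGF-R2+ cells by a log2 difference of -0.93 ± 0.19, which ranged from -1.22 to -0.64 without the second or the first CD41+ array. The other Mmp2 probe set, 1439364_a_at, gave 0.91 ± 0.21 for CD144+ against CD144- cells at day 6.5 and 1.09 ± 0.21 for CD144+ cells of day 6.5 against day 3.5.

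Mmp9 encodes gelatinase B, a protease known from neutrophils, macrophages and migrating cells. It was highest at day 2.5, with signals of 563 and 471 in VEGF-R2+ and 476 and 414 in VEGF-R2- cells, which overlapped. At day 3.5 it stood near the overall median in the CD41 sort, with 67.4 and 89.7 in CD41+ and 70.6 and 55.1 in CD41- cells. The CD144 sort of that day lay between these levels, with 145 and 172 in CD144+ and 109 and 114 in CD144- cells. At day 6.5 the order of the CD144 sort was turned, with 170 and 175 in CD144+ and 280 and 247 in CD144- cells. Against VEGF-R2+ cells the log2 difference was -2.64 ± 0.29 in CD41+ cells and -1.67 ± 0.29 in CD144+ cells of day 3.5, comparisons that share the VEGF-R2+ arrays. Between day 6.5 and day 3.5 it was 1.20 ± 0.29 in CD144- cells and 0.13 ± 0.29 in CD144+ cells, and the difference between these changes was -1.07 ± 0.41. The 2 probe sets of Mmp9 disagree in CD41+ cells. 1448291_at read 11.2 and 4.64 there and 67.3 and 46.2 in CD41- cells, a log2 difference of -2.19 ± 0.42, where the leading probe set gave 0.29 ± 0.29. Both probe sets are therefore low in CD41+ cells next to VEGF-R2+ cells (log2 difference -5.11 ± 0.42 for 1448291_at), but the CD41+ and CD41- cells are set apart by only 1 of them. The CD41+ signals of 1448291_at were below the 25th percentile of all values, 23.4, so the size of its differences rests on the constant added before the log2.

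Mmp14 encodes MT1-MMP, a membrane-anchored protease that activates the Mmp2 precursor in a complex with Timp2. Signals of its leading probe set were 1494 and 1330 in VEGF-R2+ and 898 and 940 in VEGF-R2- cells, without overlap. At day 3.5 they were 428 and 847 in CD41+ cells, 432 and 439 in CD41- cells, 905 and 902 in CD144+ cells and 658 and 689 in CD144- cells. The CD41+ arrays thus span the level of the CD41- cells and nearly reach that of CD144+ cells. At day 6.5 CD144+ cells had 1214 and 1186 and CD144- cells 791 and 1233. The log2 difference was 0.61 ± 0.24 between VEGF-R2+ and VEGF-R2- cells and 0.28 ± 0.24 between CD144+ and CD144- cells at day 6.5. Between CD41+ and VEGF-R2+ cells it was -1.22 ± 0.24, and -0.73 when the first CD41+ array was left out. A second probe set behaved otherwise, 1440920_at, with 647 and 869 in VEGF-R2+ against 166 and 127 in VEGF-R2- cells and 465 and 656 in CD144+ against 111 and 88.4 in CD144- cells of day 6.5. Its differences between positive and negative cells were 2.32, 1.77, 1.69 and 2.41 (SE 0.46 each) for the VEGF-R2, CD41, day 3.5 CD144 and day 6.5 CD144 sorts. The third, 1416572_at, gave 0.33, -0.08, -0.36 and 0.43 (SE 0.33 each) in the same order. How far Mmp14 transcripts differ between positive and negative cells thus depends on the probe set read, and the plot of all probe sets shows these lines apart.

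**Figure D2:**
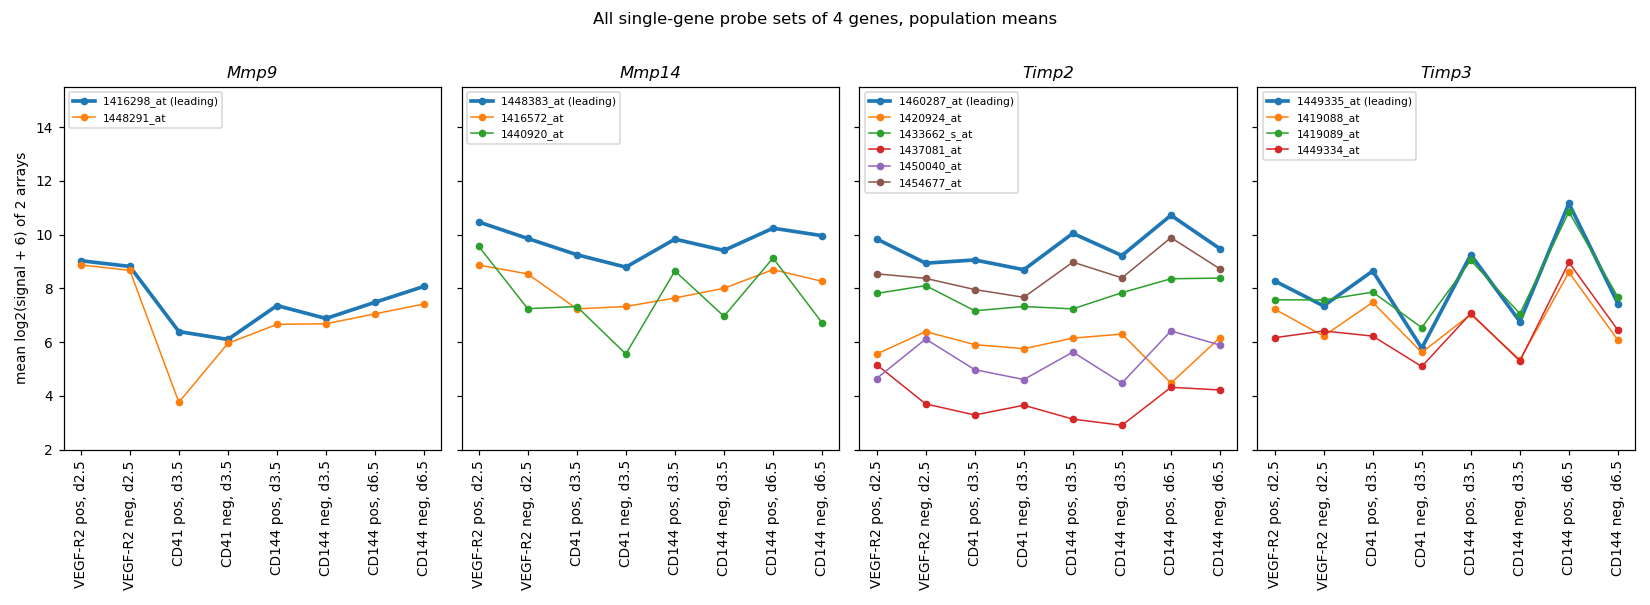
Mean log2(signal + 6) of the 2 arrays of each population (vertical) in the 8 populations (horizontal) for every single-gene probe set of Mmp9, Mmp14, Timp2 and Timp3, with the leading probe set drawn thicker. The 4 Timp3 lines peak together in CD144+ cells at day 6.5, whereas 1448291_at of Mmp9 drops in CD41+ cells, 1440920_at of Mmp14 zigzags between positive and negative cells, and the dim Timp2 probe sets do not follow the leading one.

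Adamts1 encodes a secreted protease that cleaves the proteoglycans aggrecan and versican and is known as an inhibitor of vessel growth. It has 1 probe set here. Signals were 297 and 435 in VEGF-R2+ and 198 and 116 in VEGF-R2- cells, and 188 and 210 in CD41+ and 91.6 and 85.7 in CD41- cells. In the CD144 sort they were 417 and 361 in positive and 108 and 133 in negative cells at day 3.5, and 650 and 858 against 224 and 123 at day 6.5. The positive arrays lay above the negative arrays of their day in all 4 sorts, with no overlap. The log2 difference was 1.21, 1.11, 1.64 and 2.13 (SE 0.33 each) for the VEGF-R2, CD41, day 3.5 CD144 and day 6.5 CD144 sorts. Between the positive cells of day 6.5 and day 3.5 it was 0.93 ± 0.33, and between the negative cells 0.45 ± 0.33. In CD41+ cells Adamts1 was lower than in VEGF-R2+ cells by -0.84 ± 0.33 on the log2 scale, and in CD144+ cells of day 3.5 it differed from VEGF-R2+ cells by 0.11, with a 95% interval from -0.59 to 0.80.

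The 250 bases before the transcription start of Adamts1 are shown because, of the 7 genes with a promoter entry, it is the one with a TATA box there and one of those whose signal followed the positive sorts (RefSeq, GRCm38.p6, chr16:85803114-85803363, minus strand). Capitals mark matches on either strand to any of 5 motifs. The GC box was searched as GGGCGG and the TATA box as TATAAA. For AP-1 factors the letters were TGANTCA, where N is any base. The core bound by ETS factors was written CCGGAA. The site of GATA factors was written AGATAA.
Adamts1: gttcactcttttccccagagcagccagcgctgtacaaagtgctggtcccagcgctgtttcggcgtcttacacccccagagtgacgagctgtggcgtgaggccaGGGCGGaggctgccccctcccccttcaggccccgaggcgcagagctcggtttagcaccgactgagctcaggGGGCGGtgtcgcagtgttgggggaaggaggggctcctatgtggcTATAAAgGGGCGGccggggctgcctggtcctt
The TATA box begins at position -32 from the start, and GC boxes begin at -147, -76 and -25. Of 32851 promoter windows of this length, 32.7% held a GC box, 12.4% a TATA box, 6.75% the AP-1, 12% the ETS and 9.99% the GATA sequence. The 7 genes with an entry are Adamts1, Mmp14, Timp1, Timp2, Timp3, Pcolce and Pcolce2. Each of the 7 windows held at least 1 GC box, and none held the AP-1 or the GATA sequence. A match is a description of the letters and not evidence of a bound factor.

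Timp1 encodes a soluble inhibitor that forms a complex with the Mmp9 precursor. It has 1 probe set, with signals of 616 and 904 in VEGF-R2+ and 819 and 765 in VEGF-R2- cells, which overlapped. In the CD41 sort the positive cells were lower, with 249 and 333 against 461 and 459, and did not overlap with the negative cells. In the CD144 sort of day 3.5 the positive cells were higher, with 802 and 751 against 342 and 350. At day 6.5 the signals were 832 and 827 in CD144+ and 599 and 589 in CD144- cells. The direction thus differed between the blood and the endothelial marker at day 3.5, with log2 differences of -0.66 ± 0.19 for CD41 (-0.46 without the first and -0.87 without the second CD41+ array) and 1.15 ± 0.19 for CD144. CD144+ exceeded CD41+ cells of the same day by 1.41 ± 0.19, and CD41+ cells were below VEGF-R2+ cells by -1.36 ± 0.19. From day 3.5 to day 6.5 the difference was 0.09 ± 0.19 in CD144+ cells (95% interval from -0.32 to 0.50) and 0.77 ± 0.19 in CD144- cells.

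Timp2 encodes the inhibitor that bridges Mmp14 and the Mmp2 precursor at the cell surface. Its leading probe set read 790 and 1044 in VEGF-R2+ against 488 and 478 in VEGF-R2- cells and 452 and 611 in CD41+ against 426 and 389 in CD41- cells. In the CD144 sort it read 1040 and 1058 against 559 and 622 at day 3.5 and 1630 and 1724 against 636 and 776 at day 6.5. Positive arrays lay above the negative arrays of their day in every sort, and both CD144+ arrays of day 6.5 above all others. The log2 differences were 0.90, 0.36, 0.82 and 1.25 (SE 0.18 each) for the VEGF-R2, CD41, day 3.5 CD144 and day 6.5 CD144 sorts. Between day 6.5 and day 3.5 the log2 difference was 0.67 ± 0.18 in CD144+ cells and 0.25 ± 0.18 in CD144- cells. The other 5 probe sets of Timp2 are dimmer and do not all follow. 1454677_at gave 0.17, 0.29, 0.58 and 1.16 (SE 0.34 each) in the same 4 sorts, 1433662_s_at gave -0.29, -0.16, -0.60 and -0.02 (SE 0.24 each), and 3 of the 6 probe sets had the sign of the leading one in the VEGF-R2 sort.

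Timp3 encodes the inhibitor that binds to the matrix itself, blocks Adamts proteases as well as metalloproteinases and is known to keep VEGF from its receptor VEGF-R2. Its signals were 250 and 369 in VEGF-R2+ and 131 and 186 in VEGF-R2- cells. At day 3.5 they were 368 and 421 in CD41+ against 34.7 and 67.2 in CD41- cells and 583 and 623 in CD144+ against 96.6 and 109 in CD144- cells. At day 6.5 they were 2245 and 2316 in CD144+ against 172 and 161 in CD144- cells. The positive cells of every sort lay above the negative cells, and the CD144+ arrays of day 6.5 above all other arrays. The log2 difference was 0.93 ± 0.29 in the VEGF-R2 sort, 2.87 ± 0.29 in the CD41 sort, 2.49 ± 0.29 in the CD144 sort of day 3.5 and 3.73 ± 0.29 in that of day 6.5, the last a 13.2-fold difference on this scale. All 4 Timp3 probe sets were higher in CD144+ than in CD144- cells at day 6.5, with log2 differences from 2.52 to 3.73, and in the CD41 sort from 1.13 to 2.87. In the VEGF-R2 sort they ranged from -0.25 to 1.0 and 3 of the 4 had the same sign. CD144+ cells of day 6.5 exceeded those of day 3.5 by 1.91 ± 0.29, and the CD144- cells by 0.67 ± 0.29. Between CD41+ and VEGF-R2+ cells the Timp3 difference was 0.37, with a 95% interval from -0.25 to 0.98, where Mmp2, Mmp9 and Mmp14 had differences of -0.93, -2.64 and -1.22. Endothelial markers moved with Timp3 and Adamts1, since 12 of 12 were higher in the positive cells of the CD41 sort and of both CD144 sorts and 9 of 12 in the VEGF-R2 sort. Their summed signal was 35311 and 35335 in CD144+ against 1675 to 1821 in CD144- cells at day 6.5, 19613 to 21224 against 1863 to 2293 at day 3.5 and 11164 to 19728 in CD41+ against 1283 to 1354 in CD41- cells, and the part of these cells in both genes' signals was not tested.

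The same upstream window of Timp3 is shown as the gene with the largest difference between endothelial and negative cells (RefSeq, GRCm38.p6, chr10:86300162-86300411, plus strand), with capitals for the motifs given for Adamts1.
Timp3: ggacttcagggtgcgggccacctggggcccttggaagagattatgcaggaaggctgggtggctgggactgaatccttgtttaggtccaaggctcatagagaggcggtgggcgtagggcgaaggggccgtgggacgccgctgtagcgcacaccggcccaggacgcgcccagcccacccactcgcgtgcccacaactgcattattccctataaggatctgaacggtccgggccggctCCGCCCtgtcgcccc
It held 1 GC box, at position -15, and no TATA box in the form searched, with 18 CpG dinucleotides and a GC content of 65.6%, next to 15 CpG and 65.6% for Adamts1.

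Pcolce and Pcolce2 encode secreted proteins that bind the procollagen C-propeptide and speed its removal. Pcolce signals were 628 and 870 in VEGF-R2+, 693 and 683 in VEGF-R2-, 448 and 362 in CD41- cells, and 4.57 and 59.7 in CD41+ cells. In the CD144 sort they were 495 and 615 in positive and 312 and 313 in negative cells at day 3.5, and 443 and 591 against 584 and 700 at day 6.5. The CD41+ arrays, both below the overall median, were the lowest of all 16. The log2 difference was -3.95 ± 0.51 between CD41+ and CD41- cells, -4.82 ± 0.51 between CD41+ and VEGF-R2+ cells and 4.40 ± 0.51 between CD144+ and CD41+ cells, comparisons that share the CD41+ arrays. With the first CD41+ array left out they were -2.64, -3.50 and 3.09, and with the second left out -5.27, -6.14 and 5.72. The other Pcolce probe set, 1448433_a_at, read 60.3 and 115 in CD41+ and 203 and 235 in CD41- cells, a log2 difference of -1.33 ± 0.28, and -1.96 ± 0.28 against VEGF-R2+ cells. The direction held for both probe sets and the size did not.

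Pcolce2 showed the same drop with its single probe set. Signals were 656 and 525 in VEGF-R2+ and 474 and 540 in VEGF-R2- cells, then 375 and 382 in CD41- and 8.96 and 4.43 in CD41+ cells. Both CD41+ signals were below the 25th percentile of all values, 23.4, so the size of the difference rests on the constant added before the log2. CD144+ cells had 272 and 174 at day 3.5 and 205 and 152 at day 6.5, and CD144- cells 289 and 327, and 305 and 364. The log2 difference between CD41+ and CD41- cells was -4.94 ± 0.29 with 6 added, -5.50 with 2 added and -3.41 with 32 added. Without the first or the second CD41+ array it was -5.20 or -4.68. Against VEGF-R2+ cells it was -5.57 ± 0.29 in CD41+ and -1.41 ± 0.29 in CD144+ cells of day 3.5, and CD144+ exceeded CD41+ cells by 4.16 ± 0.29, or by 2.70 with 32 added. Between CD144+ and CD144- cells it was -0.49 ± 0.29 at day 3.5 and -0.89 ± 0.29 at day 6.5. Among the leading probe sets, that of Pcolce2 was the one with a difference below 0 in the CD144 sort of both days. The summed signal of 13 fibroblast and mesenchyme markers, other genes of collagen-making cells, was 1260 and 1596 in CD41+, 1886 to 1915 in CD41-, 2667 to 2681 in VEGF-R2+ and 3281 to 3491 in CD144+ cells of day 3.5. In the CD41 sort 2 of the 13 were higher and 2 lower. In CD41+ against VEGF-R2+ cells 1 was higher and 5 lower, and in CD144+ against CD41+ cells 5 were higher and 1 lower. Markers of pluripotent cells moved further in these comparisons, with 9 of 10 lower in CD41+ than in CD41- cells, 6 of 10 lower in CD41+ than in VEGF-R2+ cells and 9 of 10 higher in CD144+ than in CD41+ cells. Their summed signal was 3987 to 10361 in CD41+, 81267 to 81398 in CD41-, 28819 to 30848 in VEGF-R2+ and 49315 to 56053 in CD144+ cells of day 3.5. The part of either list's cells in the Pcolce and Pcolce2 differences was not tested.

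The upstream windows of both enhancers are shown because the leading probe set of each was lower in CD41+ cells than in any other population (RefSeq, GRCm38.p6, chr5:137611405-137611654, minus strand, for Pcolce and chr9:95637378-95637627, plus strand, for Pcolce2), with the same motifs in capitals.
Pcolce: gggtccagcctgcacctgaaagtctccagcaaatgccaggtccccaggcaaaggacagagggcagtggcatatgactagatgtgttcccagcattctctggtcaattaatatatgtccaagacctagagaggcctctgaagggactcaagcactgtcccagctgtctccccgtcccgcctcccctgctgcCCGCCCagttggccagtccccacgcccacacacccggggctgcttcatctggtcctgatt
Pcolce2: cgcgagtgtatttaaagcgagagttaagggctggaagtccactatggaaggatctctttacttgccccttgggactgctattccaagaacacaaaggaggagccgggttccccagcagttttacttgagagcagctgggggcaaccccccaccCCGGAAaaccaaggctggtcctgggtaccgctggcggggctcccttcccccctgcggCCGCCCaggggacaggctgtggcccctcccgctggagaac
Each held 1 GC box, at position -60 in Pcolce and -40 in Pcolce2, and Pcolce2 also held an ETS sequence at -97. They had fewer CpG dinucleotides than Timp3 and Adamts1, 5 in Pcolce and 10 in Pcolce2, with a GC content of 58.8% and 61.2%. This is not particular to the enhancers, since Timp1 had 6 CpG and Mmp14 had 10. The median over all 32851 windows was 6 CpG and a GC content of 52.4%.

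Plat encodes tissue plasminogen activator, which turns plasminogen into plasmin and is made by endothelium and by parietal endoderm. Its leading probe set read 146 and 165 in VEGF-R2+ and 221 and 229 in VEGF-R2- cells, and the positive arrays were the lower ones. At day 3.5 it read 113 and 121 in CD41+ against 40.2 and 55.1 in CD41- cells and 200 and 196 in CD144+ against 80.6 and 62.9 in CD144- cells. At day 6.5 it read 568 and 530 in CD144+ and 521 and 403 in CD144- cells, each above all arrays of the earlier days. The log2 differences between positive and negative cells were -0.52, 1.21, 1.40 and 0.26 (SE 0.29 each) for the VEGF-R2, CD41, day 3.5 CD144 and day 6.5 CD144 sorts. Between day 6.5 and day 3.5 the difference was 1.44 ± 0.29 in CD144+ and 2.59 ± 0.29 in CD144- cells, and the difference between these changes was -1.15 ± 0.41. The summed signal of 14 markers of extraembryonic endoderm moved with Plat in CD144- cells, from 11973 and 12468 at day 3.5 to 28707 and 28727 at day 6.5, with 8 of the 14 higher by the limma test and Afp, Ttr and Apoa1 below the 25th percentile in CD144- cells of day 3.5. In CD144+ cells it was 34458 to 37121 at day 3.5 and 56901 to 57800 at day 6.5. The fibroblast and mesenchyme sum moved as well, from 2604 and 2755 to 9549 and 11225 in CD144- cells and from 3281 and 3491 to 21811 and 22292 in CD144+ cells. So did the early blood sum, from 668 and 792 to 18810 and 21121 in CD144- cells, with 5 of 9 markers higher by the limma test. In CD144+ cells it went from 4028 and 4646 to 22925 and 25430. The endoderm sum did not follow the leading Plat probe set in every sort. In the VEGF-R2 sort it was higher in positive cells, with 26935 and 33906 against 11594 and 11232, where Plat was lower. In the CD41 sort and the CD144 sorts of either day, the sum and Plat were both higher in the positive cells. The part of these cell types in the Plat and Mmp2 signals of day 6.5 was not tested. The second Plat probe set, 1458553_at, had signals from 2.55 to 119 and differed in direction. In the VEGF-R2 sort it read 64.2 and 119 in positive against 8.45 and 2.55 in negative cells, a log2 difference of 3.08 ± 0.90 that passed the threshold of the fit, and between the days it gave -0.86 ± 0.90 in CD144+ and -0.11 ± 0.90 in CD144- cells.

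The calls of the same limma fit, a Benjamini-Hochberg adjusted p under 0.05 over all 45037 probe sets, describe the 10 leading probe sets comparison by comparison, beside the share of all probe sets called. In the VEGF-R2 sort 3 genes were called higher in positive cells, Timp2, Timp3 and Adamts1, and 0 lower, where 11.1% of all probe sets were called higher and 13.8% lower. In the CD41 sort Timp3, Adamts1 and Plat were called higher and Timp1, Pcolce and Pcolce2 lower, next to 13.5% and 15.8% of all probe sets. In the CD144 sort of day 3.5 Timp1, Timp2, Timp3, Adamts1 and Plat were called higher and 0 genes lower, next to 9.49% and 10.5%. In that of day 6.5 Mmp2, Timp2, Timp3 and Adamts1 were called higher and Pcolce2 lower, next to 9.41% and 10.1%, and the call of Pcolce2 was lost without the second CD144+ array or either CD144- array. Timp3 and Adamts1 were the genes called in all 4 sorts with all arrays, each time higher in the positive cells. The median log2 difference of the 10 genes was 0.21, 0.33, 0.82 and 0.38 in these sorts, next to 0.08, 0.10, 0.10 and 0.07 over all probe sets. Without the second VEGF-R2+ array 1 of the 3 calls of the VEGF-R2 sort was left, that of Timp2, since those of Timp3 and Adamts1 were lost. Without the first CD41- array 3 of the 6 calls of the CD41 sort were left, as those of Timp1, Adamts1 and Plat were lost. The call of Timp1 in that sort was also lost without the first CD41+ or the second CD41- array, and that of Adamts1 without the second CD41+ or the second CD41- array, so that each was kept without 1 of the 4 arrays.

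In the comparisons between positive populations that include CD41+ cells, every call with all arrays was on the side of lower signal in CD41+ cells. In CD41+ against VEGF-R2+ cells 7 genes were called lower (Mmp2, Mmp9, Mmp14, Timp1, Timp2, Pcolce and Pcolce2) and 0 higher, next to 4.82% and 5.02% of all probe sets, with a median of -1.07 for the 10 genes and 0.06 for all probe sets. Without the first CD41+ array 4 of the 7 were left, with Mmp2, Mmp14 and Timp2 lost. In CD144+ cells of day 3.5 against VEGF-R2+ cells Timp3 was called higher and Mmp9 and Pcolce2 lower, next to 4.87% and 2.84%, and without the first VEGF-R2+ array or without the second CD144+ array the call of Mmp9 alone was left. In CD144+ against CD41+ cells of day 3.5 Mmp2, Mmp9, Timp1, Timp2, Pcolce and Pcolce2 were called higher and 0 genes lower, next to 6.06% and 3.72%, and all 10 differences were above 0, with a median of 0.98 and of -0.02 for all probe sets. The call of Mmp9 in this comparison was lost without the first CD41+ array or either CD144+ array. These 3 comparisons share their arrays in pairs, so they are not separate evidence. From day 3.5 to day 6.5 Mmp2, Timp2, Timp3 and Plat were called higher in CD144+ cells and 0 genes lower, next to 3.2% and 2.64%, but the call of Timp2 was lost without any 1 of the 4 arrays, and without the first CD144+ array of day 6.5 that of Plat was lost too, which left 2 calls, those of Mmp2 and Timp3. In CD144- cells Plat alone was called higher and 0 genes lower, next to 0.557% and 0.162%, although all 10 differences were above 0, with a median of 0.64 and of 0.05 for all probe sets. The difference of this change between CD144+ and CD144- cells was called for 0 of the 10 genes in either direction, next to 0.364% higher and 0.426% lower. With 2 arrays per population, a lack of calls does not show that the changes were alike.

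**Figure D3:**
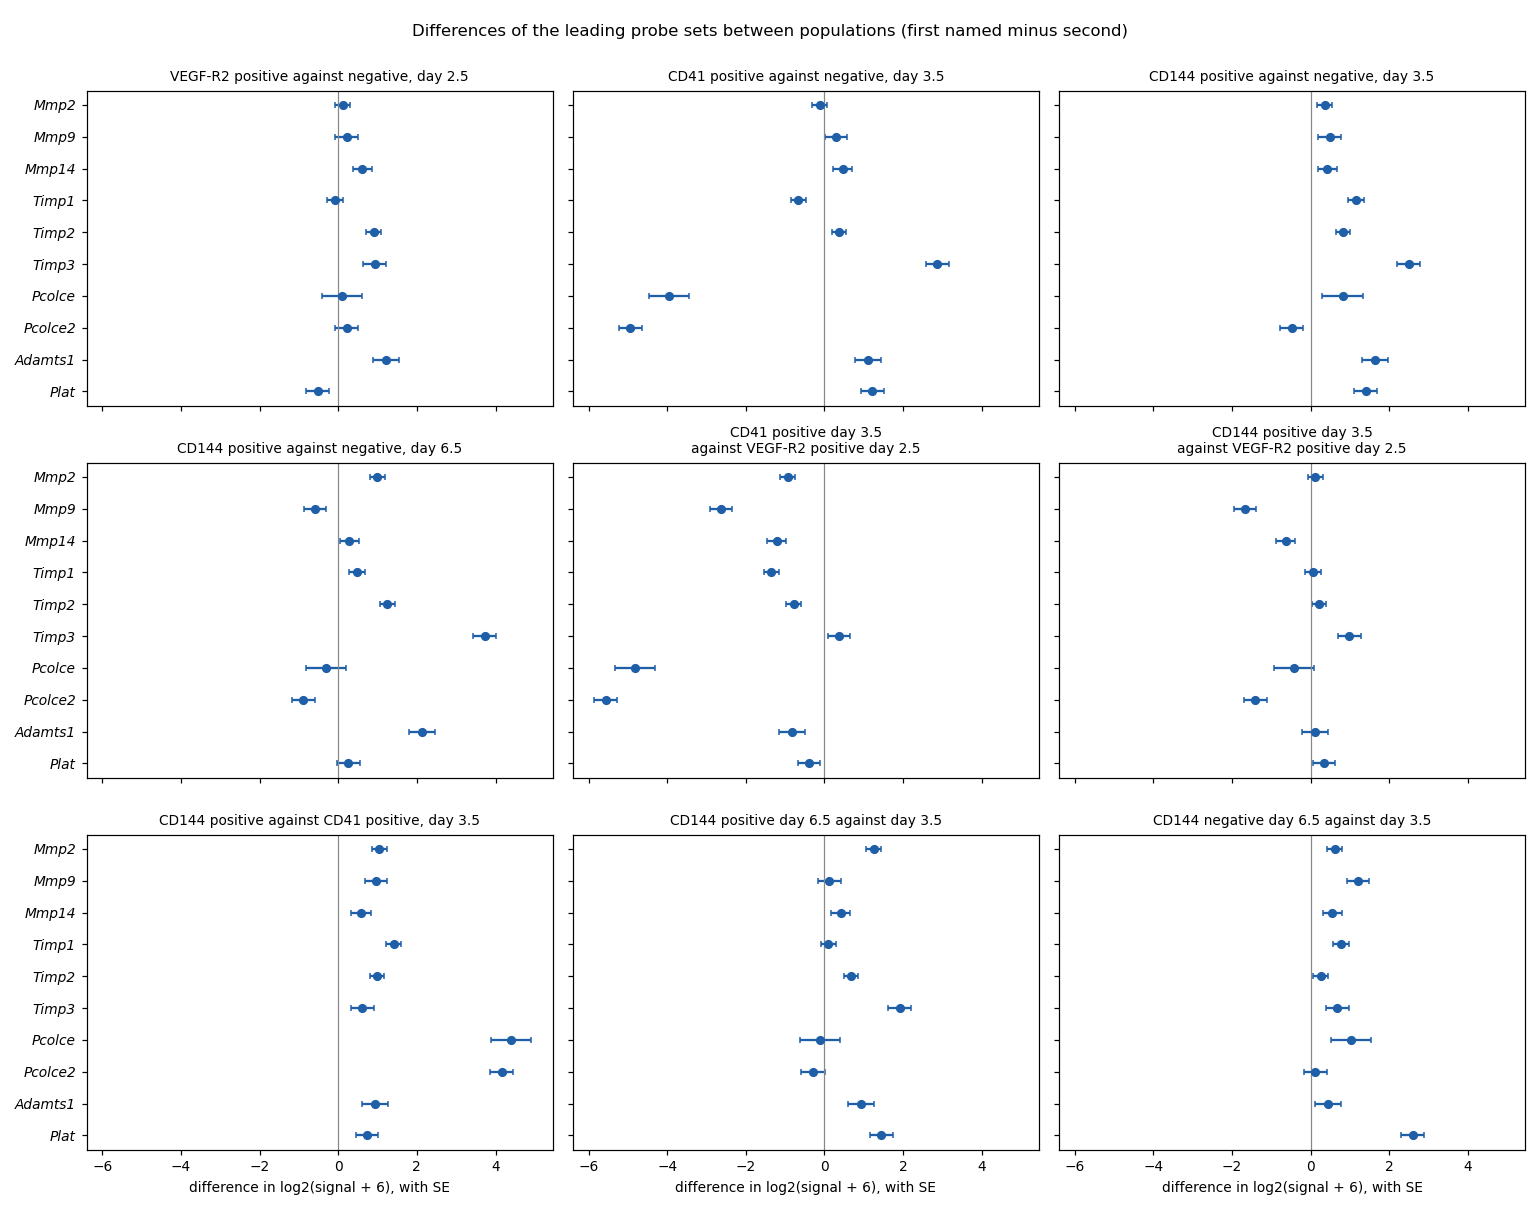
Difference in log2(signal + 6) of the leading probe set of each gene (horizontal, points with bars of 1 standard error from limma) for 9 comparisons, 1 panel each, as the first population named minus the second. Timp3 lies to the right of 0 in all 4 sorts, Pcolce and Pcolce2 lie far to the left where CD41+ cells come first and far to the right where they come second, and Plat has the largest difference in the CD144- cells, 2.59.

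The other genes of matrix remodelling were taken from lists by function, 61 genes of which 50 had a probe set of 1 symbol: 14 metalloproteinases, 14 Adamts proteases, 2 inhibitors, 6 genes of plasminogen activation and 14 of procollagen processing and crosslinking. These were listed from general knowledge, and their limma tests are given with adjusted p-values over all probe sets. In the VEGF-R2 sort 3 were higher and 7 lower, in the CD41 sort 4 and 9, in the CD144 sort 3 and 9 at day 3.5 and 2 and 6 at day 6.5. Over all probe sets 11.1% were higher and 13.8% lower in the VEGF-R2 sort, 13.5% and 15.8% in the CD41 sort, 9.49% and 10.5% in the CD144 sort of day 3.5 and 9.41% and 10.1% in that of day 6.5, so that lower calls were the more frequent ones there as well. The median over the 50 was 0.32, 0.23, 0.11 and -0.05 in the same order. Of the lower genes 3 of 7, 4 of 9, 5 of 9 and 4 of 6 belong to the list of procollagen processing and crosslinking.

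**Figure D4:**
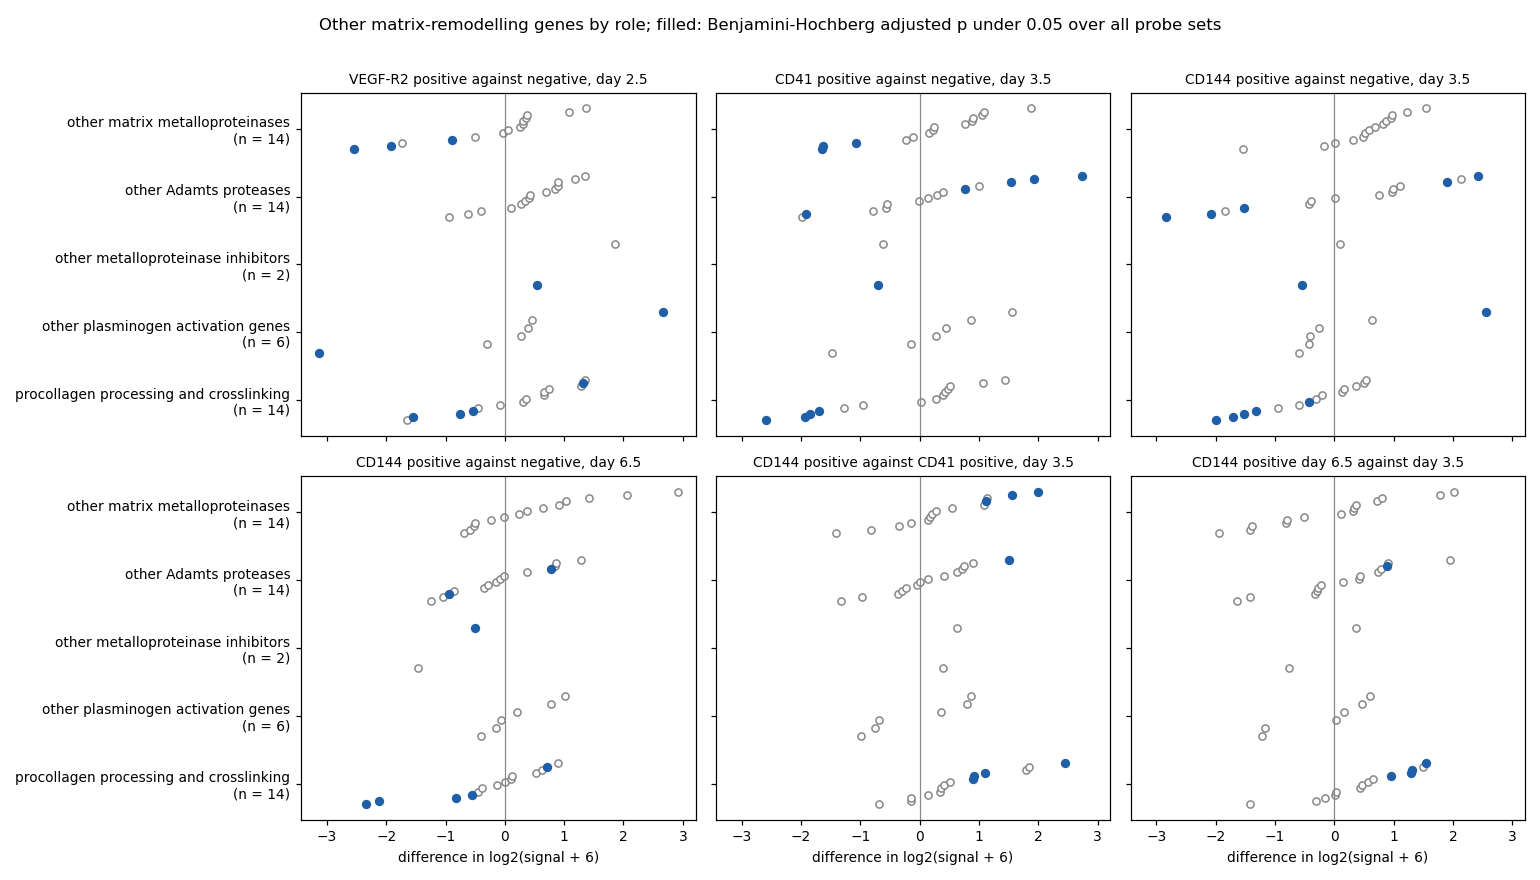
Difference in log2(signal + 6) (horizontal) of the 50 other genes of matrix remodelling, 1 point per gene, in rows by role and in panels by comparison, filled where the Benjamini-Hochberg adjusted p was under 0.05 over all probe sets. Filled points of the procollagen row lie mainly to the left of 0 in the positive against negative panels and all to the right of 0 in CD144+ cells of day 6.5 against day 3.5.

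P4ha2, a subunit of the prolyl hydroxylase that stabilises the collagen helix, read 179 and 189 in CD41+ against 730 and 710 in CD41- cells (log2 difference -1.94 ± 0.17, adjusted p = 2.27e-07). P4ha1, P4ha2 and Plod2, a lysyl hydroxylase, were all lower in CD41+ than in CD41- cells and in CD144+ than in CD144- cells at day 3.5. In CD144+ cells the same 3 genes rose from day 3.5 to day 6.5. P4ha2 went from 366 and 439 to 1216 and 1145 (1.54 ± 0.17, adjusted p = 4.39e-05), P4ha1 from 656 and 545 to 1576 and 1406 (1.31 ± 0.18, adjusted p = 0.000391) and Plod2 from 1221 and 850 to 2484 and 2504 (1.29 ± 0.16, adjusted p = 0.000165). In CD144- cells the means of these 3 genes were also higher at day 6.5, without a call. They went from 1168 to 1730 for P4ha2, 1974 to 2628 for P4ha1 and 2566 to 3442 for Plod2. In CD144+ cells of day 6.5 the means were lower than these, at 1181, 1491 and 2494. The difference between the changes was called for 0 of the 50 genes. Serpinh1, a collagen chaperone, read 5285 and 6171 in VEGF-R2+ against 2240 and 2354 in VEGF-R2- cells (1.31 ± 0.21, adjusted p = 0.000221). The procollagen proteases Tll1 and Bmp1, whose step the enhancers speed, were also lower in CD41+ than in VEGF-R2+ cells. Tll1, a relative of Bmp1, read 262 and 148 in VEGF-R2+ and 22.2 and 4.84 in CD41+ cells (-3.54 ± 0.62, adjusted p = 0.0011). Bmp1 read 355 and 494 in VEGF-R2+ and 12.1 and 233 in CD41+ cells (-2.69 ± 0.78, adjusted p = 0.0355). The Bmp1 difference was -0.83 without the first CD41+ array and -4.55 without the second. Its call was lost without 3 of the arrays, each left out in turn, and kept in 7 of 13 alternatives. The collagen crosslinking enzyme Loxl1 read 6.93 and 68.2 in CD41+ against 187 and 175 in CD41- cells (-2.59 ± 0.55, adjusted p = 0.00164), and without the first CD41+ array the difference was -1.33 with the call kept, and without the second -3.85.

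Among the other proteases Mmp11, a metalloproteinase named stromelysin-3, was lower in VEGF-R2+ than in VEGF-R2- cells, with 73.1 and 98.2 against 335 and 339 (log2 difference -1.92 ± 0.28, adjusted p = 9.54e-05). It was higher in CD144+ cells of day 3.5, with 345 and 293, than in VEGF-R2+ cells (1.84 ± 0.28, adjusted p = 0.000614) and than in CD41+ cells, with 136 and 79.9 (1.55 ± 0.28, adjusted p = 0.00156). Adamts9, a relative of Adamts1, was lower in the positive cells of day 3.5, where Adamts1 was higher. It read 122 and 296 in CD41+ against 770 and 710 in CD41- cells (-1.92 ± 0.29, adjusted p = 7.86e-05) and 341 and 260 in CD144+ against 1412 and 1162 in CD144- cells of day 3.5 (-2.08 ± 0.29, adjusted p = 8.53e-05). Adamts12 read 107 and 64.1 in CD41+ and 8.74 and 5.99 in CD41- cells (2.74 ± 0.63, adjusted p = 0.00299), Adamts3, which cuts the N-propeptide of procollagen, 318 and 259 against 109 and 82.2 (1.54 ± 0.34, adjusted p = 0.00236), and Adamts16 247 and 192 against 55.1 and 50.3 (1.93 ± 0.50, adjusted p = 0.00679). Adamts20 was lower in CD144+ than in CD144- cells of day 3.5, with 26.4 and 4.14 against 127 and 120 (-2.83 ± 0.57, adjusted p = 0.00174). With the probe set of the largest variance in place of the brightest, the calls of Adamts3, Adamts9 and Adamts16 in these comparisons were lost, with adjusted p from 0.123 to 0.979. The membrane-anchored inhibitor Reck was higher in VEGF-R2+ than in VEGF-R2- cells, with 606 and 547 against 395 and 391 (0.54 ± 0.17, adjusted p = 0.025). That call was lost without the first VEGF-R2+ array or either VEGF-R2- array, with an adjusted p of up to 0.125 and a range from 0.0073 to 0.125 over the alternatives. Serpini1, an inhibitor of tissue plasminogen activator, read 87.1 and 13 in VEGF-R2+ against 359 and 368 in VEGF-R2- cells (-3.13 ± 0.64, adjusted p = 0.00168), and -1.99 with an adjusted p of 0.0364 without the second VEGF-R2+ array (from 0.000245 to 0.0364 over the alternatives).

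Between positive populations 7 of the 50 genes were lower and 0 higher in CD41+ than in VEGF-R2+ cells, next to 4.82% and 5.02% of all probe sets, and 4 of the 7 were left without the second VEGF-R2+ array. In CD144+ cells of day 3.5 2 were higher and 1 lower than in VEGF-R2+ cells, next to 4.87% and 2.84%. In CD144+ against CD41+ cells 8 were higher and 0 lower, next to 6.06% and 3.72%, and 5 of the 8 were left without the first CD41+ or the first CD144+ array. From day 3.5 to day 6.5 5 rose in CD144+ cells and 0 fell, next to 3.2% and 2.64%, with 3 left without the second CD144+ array of day 3.5 or the first of day 6.5. In CD144- cells 0 of the 50 passed the limma test, with 6 at an unadjusted p under 0.05, and 0 passed for the difference between the changes, with 10 at an unadjusted p under 0.05. The share of all probe sets at that unadjusted limit was not counted, so these unadjusted counts have no background beside them. In the sorts the count of 10 in the VEGF-R2 sort became 3 to 6 without the first VEGF-R2+ or either VEGF-R2- array, the 12 of the day 3.5 CD144 sort 5 or 6 without the second CD144+ or either CD144- array, and the 8 of the day 6.5 CD144 sort 1 to 4 without any 1 of its 4 arrays. In the CD144 sort of day 6.5 the call of Adamts10 (0.77 ± 0.24, adjusted p = 0.0331) was lost without any 1 of the 4 arrays and that of Tll1 (-2.34 ± 0.62, adjusted p = 0.0122) without 2 of them, with adjusted p of up to 0.454 and 0.115 over the alternatives.

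Over the 8 population means the 10 genes were also set against each other and against 20017 brighter single-gene probe sets, as a description in which all points share the same arrays. Timp3 and Adamts1 ran most closely together among the 10 (Pearson r = 0.96 over 8 populations), followed by Pcolce with Pcolce2 (0.95) and Timp2 with Adamts1 (0.95). Timp3 and Pcolce2 were the pair with the lowest value, -0.32. For Pcolce and Pcolce2, CD41+ cells lay far from the rest, with log2 means of 4.72 and 3.64. The next lowest populations were at 8.32 and 7.51, and the value without CD41+ cells was not computed. The genes listed next are the highest of 20017 probe sets over 8 points, so high values follow in part from that choice. The genes of highest r with Timp3 were Tcirg1, Mphosph9 and St3gal1 (0.98 to 0.99), with Adamts1 Sh2d3c, Bet1l and Ube2r2 (0.98 to 0.99) and with Timp2 Klf6, Mpzl1 and Stx6 (0.98 to 0.99). With Pcolce2 they were Sowahc, Aif1l and Fermt2 (0.98 to 0.99), and with Pcolce Snx24, Fermt2 and Spsb4 (all 0.98). With Plat they were Tnc, Col3a1 and Osbpl8 (0.93 to 0.94), and with Mmp2 Plk2, Palm and Magee1 (0.96 to 0.97). For Mmp9 they were Slc27a4, Spsb4 and Pcbp4 (0.94 to 0.96), for Mmp14 Ap1s2, Zwint and Gpsm1 (0.96 to 0.98) and for Timp1 Syt11, Bcar1 and Dab2ip (0.93 to 0.97).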

How the data were processed

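RNA of 16 samples was hybridised to Affymetrix mouse genome arrays, which were deposited as intensity values: the authors made MAS5 signals and scaled each array to a trimmed mean, between the 2nd and the 98th percentile, of 500. The signals were used as deposited. The study also describes arrays of CD144+ and CD144- cells sorted from mouse embryos, which were not used here. Groups came from the sample labels. The 64 control probe sets were left out, and log2(signal + 6) of the other 45037 was fitted in R 4.3.3 with limma 3.58.1 (lmFit and eBayes with trend) with 1 mean per population, so that p-values measure only the spread between duplicates. Adjusted p-values are Benjamini-Hochberg values over all probe sets at a threshold of 0.05. Genes were named by GEO's platform annotation: 34945 probe sets had 1 symbol, 932 several and 9160 none. The genes and lists were chosen with earlier results of these data known. Of the listed other genes, those named with their tests come from up to 3 called in each direction and comparison, Bmp1 among them. Not all of these calls are described. Left out are Mmp13, lower in the VEGF-R2 sort, and Adamts7 and Adamts19, higher in the day 3.5 CD144 sort. Mmp23, lower in CD41+ than in VEGF-R2+ and in day 3.5 CD144+ cells, is left out too, as are further calls of genes described elsewhere. P4ha1, P4ha2 and Plod2 are also named together, a choice made after their values were seen. The fit was tested on simulated data. The alternatives were quantile normalization, 2 or 32 added, leaving out probe sets under a signal of 100, only the compared populations, only the populations of the same sort direction, the replicate number as a block, a robust prior without trend, a 90% interval beyond 2-fold, the probe set of the largest variance and leaving out each array. The number of arrays limits the precision. Figures were drawn with Python 3.11.15 and matplotlib 3.10.9.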

Additional observations from a re-analysis of the deposited data

How the results depend on the processing

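Of the recomputed log2 differences, those of the 10 genes were judged by size and those of the other named genes by their call. Together 1489 stayed within 1 SD (the 10 genes) or kept direction and call (the others). Of the 10 genes 115 moved by more than 1 SD, and of the others 106 lost the call. A further 6 reversed. Lost calls of the 10 genes are thus not among the 106. All 6 reversals of a called difference came with the probe set of the largest variance: Timp2 gave -1.47 in the VEGF-R2 sort and 0.33 in CD41+ against VEGF-R2+ cells, Plat -0.86 in CD144+ and -0.11 in CD144- cells between the days, Adamts16 -0.0354 in the CD41 sort and Plod1 -0.77 in the day 6.5 CD144 sort. With the same setting, differences that were not called changed sign and were then called for Plat in the VEGF-R2 sort, from -0.52 to 3.08, and for Mmp9 in the CD41 sort, from 0.29 to -2.19. Other uncalled differences changed sign without a call, such as Mmp9 in the day 3.5 CD144 sort (-0.02), Plat in CD144+ against VEGF-R2+ (-0.86) and against CD41+ cells (-0.27) and Mmp14 in CD144- cells between the days (-0.24). These are other probe sets of the same gene, and the cause was not tested. Besides these, the call of Timp2 in CD144+ cells between the days was lost after quantile normalization, with the robust prior and in the fit of the positive populations, that of Pcolce2 in the day 6.5 CD144 sort with 2 added, with the compared populations only and with the robust prior, and that of Mmp9 in CD144+ against CD41+ cells in the fits of the compared and of the positive populations only. The call of Timp3 in CD144+ against VEGF-R2+ cells was lost after quantile normalization, with 2 added, with the compared populations only and with the robust prior. Leaving out 1 array gave 1 to 3 of the 10 genes called in the VEGF-R2 sort, 3 to 7 in the CD41 sort, 4 to 7 in CD41+ and 1 to 3 in CD144+ against VEGF-R2+ cells and 2 to 3 in CD144+ cells between the days. Of the 50 other genes it gave 3 to 7 in the VEGF-R2 sort, 5 to 8 and 1 to 4 in the CD144 sorts of day 3.5 and day 6.5, 4 to 7 in CD41+ against VEGF-R2+ cells, 5 to 9 in CD144+ against CD41+ cells, 3 to 5 in CD144+ cells between the days and 0 to 1 for the difference between the changes.

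The count of the 10 genes fell to 3 in the CD41 sort in a fit of the compared populations only. In CD144- cells between the days it was 2 without dim probe sets, 5 in a fit of the negative populations and 0 with the probe set of the largest variance, which gave 2 in CD144+ cells. A 90% interval beyond 2-fold left 0, 3, 2 and 2 in the VEGF-R2, CD41, day 3.5 CD144 and day 6.5 CD144 sorts, 4 in CD41+ and 1 in CD144+ against VEGF-R2+ cells, 3 in CD144+ against CD41+ cells and 1 in CD144+ cells between the days. For the 50 other genes it left 3, 8, 7 and 1 in the 4 sorts, 3 in CD41+ against VEGF-R2+ cells, 3 in CD144+ against CD41+ cells and 2 in CD144+ cells between the days. Their count in the day 6.5 CD144 sort was 5 after quantile normalization, 4 with the compared populations only, 3 with the robust prior and 5 with the probe set of the largest variance, and in the day 3.5 CD144 sort 7 with the robust prior. It was 5 in CD144+ against VEGF-R2+ cells with 32 added and 1 for the difference between the changes without dim probe sets. With the compared populations only it was 1 in CD41+ against VEGF-R2+ cells, 1 in CD144+ against VEGF-R2+ cells and 0 in CD144+ against CD41+ cells, and with the populations of the same sort direction 3, 1 and 4, and 2 in CD144- cells between the days. The probe set of the largest variance gave 3 in CD144+ and 1 in CD144- cells between the days.

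With the replicate number as a block (replicate block), 5 of the 10 genes rather than 6 were called in CD144+ against CD41+ cells, where Mmp9 was lost, and the count of the 10 was the same in each other comparison. Of the 50 other genes, 8, 13, 11 and 7 were called in the 4 sorts. No pairing by replicate number was seen: 0 of 28 pairs of populations had deviations between their duplicates that correlated above 0.1 (from -0.0468 to 0.0472). These correlations ran over all probe sets, dim ones included, so they cannot tell whether same-numbered arrays came from a shared experiment. With 2 arrays per population, signals near the 10th percentile of all values (6.03) carry no order, which bears on Pcolce2, Pcolce and the Mmp9 probe set 1448291_at in CD41+ cells.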

Other observations

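Some of the other genes of matrix remodelling passed the limma test at signals near the bottom of the scale and did so on few arrays. Plau, the urokinase-type plasminogen activator, read 46.6 and 61.2 in VEGF-R2+ against 2.28 and 4.63 in VEGF-R2- cells (log2 difference 2.66 ± 0.77, adjusted p = 0.0174), and its call was lost without 3 of the 4 arrays in turn, with adjusted p from 0.012 to 0.11 over the alternatives. Serpinb2, an inhibitor of urokinase, read 22.5 and 52.4 in CD144+ against 0.603 and 1.31 in CD144- cells of day 3.5 (2.55 ± 0.66, adjusted p = 0.0104), and its call was also lost without 3 of the 4, with adjusted p from 0.00615 to 0.0935 over the alternatives. The crosslinking enzyme Lox read 9.48 and 8.3 in CD144+ against 63.5 and 44.5 in CD144- cells of day 3.5 and 6.17 and 5.92 against 38.1 and 55.9 at day 6.5. Both Lox calls (-1.99 ± 0.67, adjusted p = 0.0464, and -2.12 ± 0.67, adjusted p = 0.0353) were lost without any 1 of the arrays, with adjusted p of up to 0.528 and 0.727 over the alternatives.

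The inhibitor Reck, higher in VEGF-R2+ than in VEGF-R2- cells, was lower in the positive cells of each later sort, with signals of 346 and 342 in CD41+ against 533 and 591 in CD41- cells, 475 and 432 against 699 and 633 in the day 3.5 and 539 and 628 against 794 and 856 in the day 6.5 CD144 sort. The log2 differences were -0.70, -0.55 and -0.50, all past the threshold in limma. That its direction differs between the sorts was not tested.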
